A study of Mus musculus with 6 samples.

Results

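The 9 genes described here encode tight junction proteins of the urothelial barrier: the claudins Cldn1, Cldn3, Cldn4, Cldn7 and Cldn8, occludin (Ocln), the junctional adhesion molecule JAM-A (F11r) and the scaffolds ZO-1 (Tjp1) and ZO-3 (Tjp3). They were chosen by name out of 21887 protein-coding genes. All open-chromatin intervals that overlapped a gene's annotated span (build mm10), widened by 20 kb on each side, were taken, and their strength was compared between Stag2-KO and Stag2-WT cells. Stag2 codes for one of the cohesin subunits, and cohesin is the ring-shaped complex that forms chromatin loops.

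ATAC-seq, which uses a transposase to cut and tag accessible DNA, was performed on 3 Stag2-WT and 3 Stag2-KO libraries of mouse urothelium. Mice of both genotypes received food containing TMX, and cells were collected 1 week after TMX induction. Urothelium was peeled, and GFP+ and DAPI- cells were sorted, 50000 per condition by the labels. All 6 libraries carry batch number 1 and are called biological replicates. The labels give neither the animals behind each library, nor their age or strain, nor the promoter that drives GFP or the recombinase, and the p-values therefore reflect only how far these 6 libraries vary, which may be partly technical.

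Tight junctions seal the space between neighbouring epithelial cells near their apical surface. Claudins form the paracellular strands and set which ions pass, occludin joins them in the strands, JAM-A is an immunoglobulin-like adhesion protein, and the ZO proteins tie these membrane proteins to actin. In the bladder this seal, with the uroplakin plaques of the superficial cells, keeps urine from the tissue below.

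Promoter sequences from RefSeq (GRCm38.p6, whose coordinates are those of mm10) were listed for 8 of the 9 genes, with 11 annotated starts. Each covers 250 bases before to 50 after a start, on the gene's strand. An interval among the best 100000 by fold overlapped 9 of these 11 promoters (81.8%) in at least 3 libraries, against 45.3% of all 32851 promoters listed. At 7 promoters this held in all 6 libraries. No library had an interval among its best 100000 over the listed Cldn7 start at 69964779 or the Tjp3 start at 81291581. A second listed start of each gene was covered. The members' promoters had a median GC content of 60.7%, against 52.7% for all. The sequences below are shown because, by fold, F11r had the best-ranked start end, Tjp3 the worst, Cldn7 the largest positive difference between genotypes at span ends and Ocln the most negative one. Tjp1 was added after its values were seen, because its listed start lies far inside its annotated span. Capitals mark matches to any of 6 motifs, read on either strand.

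F11r, chr1:171437311-171437610, plus strand: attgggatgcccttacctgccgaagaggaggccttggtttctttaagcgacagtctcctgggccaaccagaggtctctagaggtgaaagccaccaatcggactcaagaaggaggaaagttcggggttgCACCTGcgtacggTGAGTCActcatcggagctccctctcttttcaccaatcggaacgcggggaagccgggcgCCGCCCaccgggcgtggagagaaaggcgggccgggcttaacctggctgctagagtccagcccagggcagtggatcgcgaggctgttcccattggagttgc
Ocln, chr13:100552669-100552968, minus strand: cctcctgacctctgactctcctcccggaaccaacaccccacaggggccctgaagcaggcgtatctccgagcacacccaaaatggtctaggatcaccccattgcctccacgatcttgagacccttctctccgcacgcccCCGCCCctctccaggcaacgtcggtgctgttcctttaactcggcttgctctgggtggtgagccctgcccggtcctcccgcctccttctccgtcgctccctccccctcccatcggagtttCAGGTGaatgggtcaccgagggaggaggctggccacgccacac
Cldn7, chr11:69965171-69965470, plus strand: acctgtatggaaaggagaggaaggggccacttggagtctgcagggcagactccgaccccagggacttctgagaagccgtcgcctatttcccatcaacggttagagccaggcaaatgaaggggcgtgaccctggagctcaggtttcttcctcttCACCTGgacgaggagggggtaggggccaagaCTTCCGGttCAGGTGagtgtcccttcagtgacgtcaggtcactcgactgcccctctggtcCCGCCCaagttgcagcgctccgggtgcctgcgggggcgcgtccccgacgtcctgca
Tjp3, chr10:81291218-81291517, minus strand: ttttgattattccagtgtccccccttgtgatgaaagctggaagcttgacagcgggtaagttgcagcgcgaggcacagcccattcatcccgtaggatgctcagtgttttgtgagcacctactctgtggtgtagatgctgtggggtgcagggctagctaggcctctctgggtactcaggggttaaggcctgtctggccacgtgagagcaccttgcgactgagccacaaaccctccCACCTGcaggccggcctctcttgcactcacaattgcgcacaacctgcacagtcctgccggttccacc
Tjp1, chr7:65371195-65371494, minus strand: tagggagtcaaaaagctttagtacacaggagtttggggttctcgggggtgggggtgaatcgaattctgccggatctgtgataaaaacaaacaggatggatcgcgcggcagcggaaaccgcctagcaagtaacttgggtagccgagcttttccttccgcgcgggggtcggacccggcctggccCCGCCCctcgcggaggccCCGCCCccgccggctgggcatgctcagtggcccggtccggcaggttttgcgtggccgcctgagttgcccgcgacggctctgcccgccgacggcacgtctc

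The E-box CAGGTG, which Snail, Slug and Zeb repressors can bind, was present in 8 of the 11 member promoters and in 20.2% of all promoters. GGGCGG, bound by Sp and KLF factors, was also in 8 of 11, against 35.7% of all. The AP-1 motif TGANTCA was found at F11r and Cldn4 (2 of 11, against 7.81%). The ETS motif CCGGAAG occurred at both Cldn7 starts (2 of 11, against 8.86%). Neither the grainyhead-like motif AACCNGTT (2.09% of all promoters) nor the TATA box TATAAA (13.6%) matched in any of the 11. Sp and KLF letters are common in GC-rich DNA, and the members' promoters are richer in GC than most, so these shares are a description. Promoters are not genes here: both listed Ocln starts count for CAGGTG and GGGCGG, and both listed Tjp3 starts for CAGGTG. The Ocln promoters overlap and share a CAGGTG site.

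The lists held 181987 to 299636 peaks each, or 149153 to 260462 distinct intervals, and the best 100000 by fold over the local background were ranked in each library. Rank 1 has the highest fold, and a place with no interval in a list received the rank just past the last. The gain in KO is the mean −log2 rank of KO minus that of WT, so a positive gain means a better rank in KO. Read depth is not given by the lists. The fold at rank 100000 ranged from 3.65 to 5.30 between libraries, which sets the weakest interval that could be compared. Of the best 100000 intervals, 13.3% to 13.5% lay at gene ends in the WT libraries and 13.6% to 14.2% in the KO libraries. Both ends of each gene counted for this share. Start ends as a class ranked better in KO, with a median gain of 0.24 over the 12874 tested. Of 16 urothelial marker genes, 10 to 12 had an interval among the best 100000 at their start end in each WT library. In each KO library 12 to 14 had one. All 5 uroplakin genes listed were open in every library, while Trp63 and Gata3 had no such interval in any. None of the 5 leukocyte markers had one in any library. Fibroblast markers had one for 2 to 4 of 5 genes in WT and 1 to 3 in KO, smooth muscle markers for 2 to 3 of 4 in WT and 2 in KO, and endothelial markers for 1 to 3 of 5 in WT and 2 to 5 of 5 in KO. The part of such cells in the results was not tested. The start end of Stag2 held ranks 29586, 34076 and 28720 in WT and 16287, 20829 and 26329 in KO, with a gain of 0.57 ± 0.31 (SE) and a limma adjusted p of 0.414. Where in Stag2 the deletion lies is not in the labels, and this interval is no check of the genotype.

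At their start ends, all 9 genes were open in at least 3 libraries of the best 100000, and none passed the test for a difference between genotypes. A start end is the 500 bp on either side of the span's end at which the gene begins, by the strand in the promoter table, and for Cldn8 the better-ranked end. Gains were positive for 7 genes and negative for 2 (Ocln and F11r), with a median of 0.36, beside 0.24 for the 12874 start ends tested, of which 71.5% were positive. Ranked by the peak caller's p, the order turned, with a median of 0.11 for the members and 0.33 for all. The smallest limma adjusted p was 0.373 (Cldn3 and Tjp3), and over all start ends 0.0311% passed as higher and 0.0621% as lower. Only Cldn3 had an unadjusted limma p under 0.05 (0.0495), where 11.7% of all start ends were higher and 1.62% lower by that rule. With the replicate number as a block, 3 members had an unadjusted p under 0.05, all higher, beside 23.4% of all start ends higher and 3.5% lower, and again none passed after adjustment (0.0233% and 0.0388% of all). With the share of gene ends in each library as a covariate, the median gain was 0.22 for the members and 0.22 for all. That share was higher in every KO library than in every WT library. Gains with this covariate therefore cannot be cleanly separated from genotype. The 3 KO ranks were all better than the 3 WT ranks for 5 genes (Cldn1, Cldn3, Cldn7, Cldn8 and Tjp3), a pattern of 16.5% of all start ends, and for no gene were they all worse (1.5% of all). In bulk cells, a higher share of cells with an open site and a more open site in each cell cannot be told apart.

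**Figure D1:**
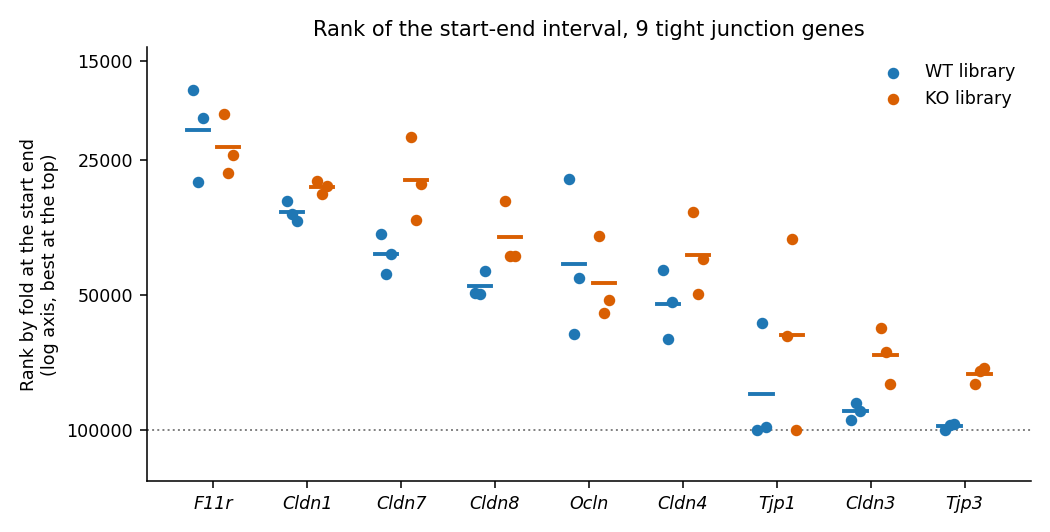
Rank by fold of the best interval at the start end (y axis, log scale, best at the top) for each of the 9 genes, in order of mean level. Points are libraries (3 WT, 3 KO), short lines are geometric means, and the dotted line marks places with no ranked interval. F11r sits near rank 20000 in both genotypes, and the KO points lie above the WT points without overlap for Cldn1, Cldn7, Cldn8, Cldn3 and Tjp3.

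Among the claudins, Cldn1, whose loss opens the epidermal barrier, had the best start end by fold (span chr16:26356645-26371839). Its ranks were 30762, 32889 and 34163 in WT and 27739, 29805 and 28518 in KO. The groups did not overlap, but the gain was only 0.18 ± 0.26 (SE, limma adjusted p = 0.778).

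Cldn7, a claudin of many epithelia that also lies along the lateral membrane (chr11:69964779-69967886), held ranks 36436, 44873 and 40425 in WT and 22220, 34048 and 28187 in KO. Every KO library ranked better than every WT library. By fold and at span ends this was the largest start-end gain among the members, 0.54 ± 0.27 (limma adjusted p = 0.390). Ranked by p, that of Tjp3 was larger (0.86 against 0.79), as was that of Tjp1 at its listed start (by fold). The interval (chr11:69965033-69965773) covers the listed start at 69965421 and the promoter printed above, not the outer end of the span.

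Cldn8, which restricts cation passage in kidney epithelium (chr16:88560826-88563183), had ranks of 49555, 49658 and 44170 in WT and 30804, 40773 and 40783 in KO. The groups did not overlap, with a gain of 0.36 ± 0.24 (limma adjusted p = 0.4997). Cldn4, a sealing claudin of the urothelium (chr5:134945123-134946934), held ranks 43998, 62699 and 51681 in WT and 32675, 49630 and 41548 in KO. Here KO replicate 2 lay within the WT range, and the gain was the same size, 0.36 ± 0.25 (limma adjusted p = 0.520).

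Cldn3, the close neighbour of Cldn4 on chromosome 5 and also a sealing claudin (chr5:134986214-134987476), had a weak start end. Its ranks were 94785, 87062 and 90632 in WT and 59141, 67031 and 78796 in KO. All KO ranks were better, with a gain of 0.42 ± 0.20 (limma adjusted p = 0.373). The gene is so short that the interval over its start (chr5:134986021-134987288) also lay within 500 bp of its other end.

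Occludin (Ocln, chr13:100496504-100552718), a tetraspan protein of the junction's strands, held ranks 27502, 60900 and 45832 in WT and 36893, 54885 and 51257 in KO. The WT libraries enclosed the KO libraries. The gain was −0.15 ± 0.30 (limma adjusted p = 0.857), and it was 0.17 without WT replicate 1, the library with the best rank.

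F11r (chr1:171437561-171464593), which also takes part in epithelial polarity and leukocyte passage, had the best start end of the 9 genes. It held ranks 17463, 28011 and 20133 in WT and 19682, 26678 and 24327 in KO, within the same range. The gain was −0.13 ± 0.33 (limma adjusted p = 0.892), and its mean level stood at the 54.5th percentile of all start ends tested.

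Tjp3 (chr10:81273188-81291581), the ZO protein found mainly in epithelia, was the weakest of the 9 by fold. It had no ranked interval in WT replicate 1, ranks of 97477 and 96755 in the other WT libraries, and 78949, 73813 and 72628 in KO. WT replicate 1 had an interval there in its whole list. The groups did not overlap, and the gain of 0.39 ± 0.18 was close to that of Cldn3 (limma adjusted p = 0.373). Windows of 1000 bp reach another interval (chr10:81292506-81293488), which lies at an end of Pip5k1c. The gain of −0.084 found with them was that of this interval.

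Tjp1 (chr7:65296165-65527850), which encodes ZO-1, the scaffold most used to trace tight junctions, differed from the rest in how its start is annotated. At the end of the span, WT replicate 1 and KO replicate 3 had no ranked interval. The others held ranks 57730 and 98444 in WT and 61506 and 37507 in KO. In the whole lists, KO replicate 3 had an interval there and WT replicate 1 had none. The gain there was 0.43 ± 0.32 (limma adjusted p = 0.539). It was 0.079 without KO replicate 2, between 0.30 and 0.79 without each other library, and −1.10 with the gene-end share as covariate. The promoter table lists another start, at 65371244. Ranks within 500 bp of that start were 84817, 69635 and 98848 in WT and 31937, 38015 and 73263 in KO, and only KO replicate 3 lay within the WT range. The gain was 0.90 ± 0.28 (limma adjusted p = 0.325 over the starts of the promoter table), in a fit that was chosen after the data were seen.

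By mean level over the 6 libraries, the order from best to worst was F11r, Cldn1, Cldn7, Cldn8, Ocln, Cldn4, Tjp1, Cldn3 and Tjp3. Neighbours in this order differed by more than the larger of their SDs over libraries only between F11r and Cldn1 (0.45 on the log2 scale) and between Cldn4 and Tjp1 (0.63). The middle level of all start ends tested corresponded to a rank of 24896, and only F11r stood above it. The order depended on the measure. By the peak caller's p, Cldn4 held ranks 3872 to 5278 and Cldn7 ranks 4143 to 10416, both ahead of Cldn1 at 15872 to 20755, and F11r stayed first at 1256 to 2922. Tjp3, last by fold, held ranks 16076 to 48557 by p, ahead of Cldn3 at 53163 to 98844. The genes with start-end ranks closest to the members' median profile were Cobll1, Hoxa10 and Gab1, at Euclidean distances of 0.14, 0.14 and 0.19 over the −log2 ranks of the 6 libraries.

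The opposite ends of the spans mostly held no ranked interval. For Cldn1, Cldn4, Cldn7, Cldn8, Ocln and Tjp3 no library had an interval there among the best 100000. F11r had one in KO replicates 1 and 2 alone (ranks 86834 and 81246). Cldn3 had the interval that also covers its start. Tjp1 held ranks of 47608, 62315 and 29119 in WT and 80187, 57545 and 32945 in KO at its opposite end, which overlap.

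Over the widened spans, the intervals merged into 129 regions: 10 at start ends, 2 at other ends, 65 internal and 52 in the flanks. Tjp1, the longest gene, held 46 of them, F11r 20, Ocln and Tjp3 12 each, Cldn4 11, Cldn3 10, Cldn7 8, Cldn8 6 and Cldn1 5, with 1 flank region counted for both Cldn3 and Cldn4. In the flanks, 8 regions lay at the end of another gene, so they need not belong to the member. An interval in at least 3 libraries was present in 99 regions, which were tested. The other 30 were in 1 or 2 libraries, 16 of them in just 1. Of the tested regions, 71.7% were in all 6 libraries, against 65.7% of all regions tested, and the median width of the 129 was 434 bp against 406 bp for all.

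None of the 99 regions passed the test (smallest limma adjusted p = 0.231), where 0.0119% of the 100565 regions tested in the genome passed as higher in KO and 0.00895% as lower. By an unadjusted limma p under 0.05, 8 regions were higher and 2 lower, beside 6.97% and 7.84% of all regions. With the replicate block these were 13 and 5, beside 10.6% and 11.3% of all, and again none passed after adjustment (0.0159% of all in each direction). Gains were positive at 54 regions and negative at 45, with a median of 0.05 beside 0.02 for all. The 3 KO ranks were all better than the WT ranks at 21 regions and all worse at 2, where the genome-wide shares were 11.4% and 8.17%. By place, the median gain was 0.36 at start ends (8 positive, 2 negative), 0.07 at internal regions (25 and 22) and 0.01 in the flanks (21 and 20). Start ends over all genes tested also leaned this way, with a median gain of 0.24 and 71.5% positive.

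**Figure D2:**
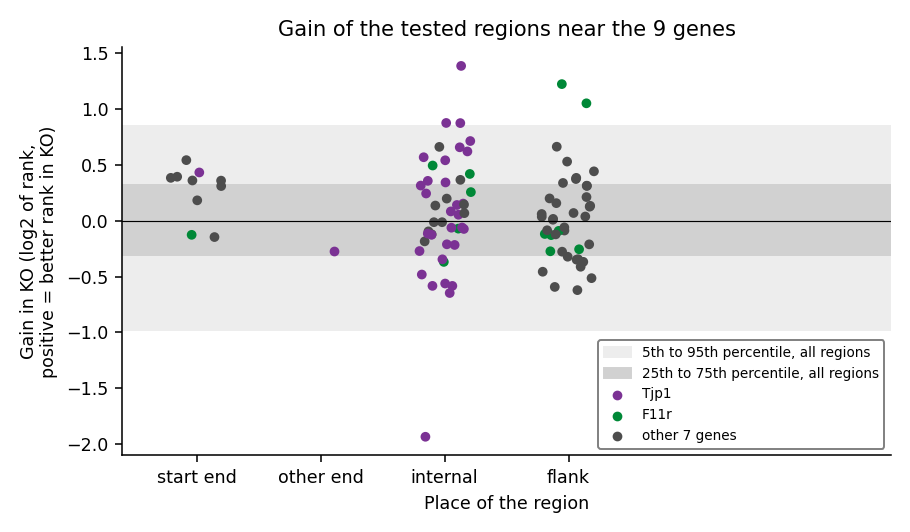
Gain in KO (y axis, −log2 rank, KO minus WT) of the 99 tested regions by place; each point is a region, coloured for Tjp1, F11r or the other 7 genes, and spread sideways only for legibility. Grey bands span the 5th to 95th percentile (−0.97 to 0.85) and the 25th to 75th percentile (−0.30 to 0.32) of all regions tested. Start ends lie mostly above 0, and 71.5% of the start ends tested over all genes were also positive. In the internal class, 1 Tjp1 region lies far below the band at −1.93.

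Inside Tjp1 lay both the strongest region near any member and the region with the smallest p. The strongest (chr7:65497870-65498468, 29.7 kb inside the span from its start end) held ranks 7259, 1319 and 2760 in WT and 3231, 175 and 2605 in KO, with KO replicate 2 far ahead. Its gain of 1.39 ± 1.14 came with overlapping groups (limma adjusted p = 0.555). It rested on KO replicate 2, without which it was 0.038, and it was 0.75 without WT replicate 1, between 1.44 and 2.14 without each other library, 0.31 when ranked by p, and −2.00 with the gene-end share as covariate.

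The region of smallest p (chr7:65460234-65460715, 67.4 kb inside) went the other way. It held ranks 6985, 15814 and 9278 in WT and 46863, 46673 and 26123 in KO, and all WT libraries ranked better than all KO libraries. The deposited folds over background, which depend on depth and were not tested, were 18.8, 24.1 and 20.8 in WT and 8.73, 11.9 and 13.5 in KO. The gain was −1.93 ± 0.43 (limma adjusted p = 0.231). It was between −2.26 and −1.67 when each library was left out, and it passed only without KO replicate 3, at −2.21 (limma adjusted p = 0.0445). In that fit 0.886% of all regions passed as higher and 1.67% as lower, and it was the only region near a member to pass. With the share of gene ends in each library as a covariate the gain was −0.75.

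The region over the listed Tjp1 start (chr7:65370293-65371656, 156.9 kb inside the span) held ranks 56915, 65665 and 55727 in WT and 31937, 38015 and 47059 in KO. All KO libraries ranked better, with a gain of 0.62 ± 0.28 (limma adjusted p = 0.334). The single flank region of Tjp1 (chr7:65280887-65281267) was ranked in KO replicate 1 alone, at rank 78535. KO replicate 2 also had an interval there in its whole list. Over the whole of Tjp1, 17 tested regions had a positive gain and 16 a negative one, so its regions did not lean one way.

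**Figure D3:**
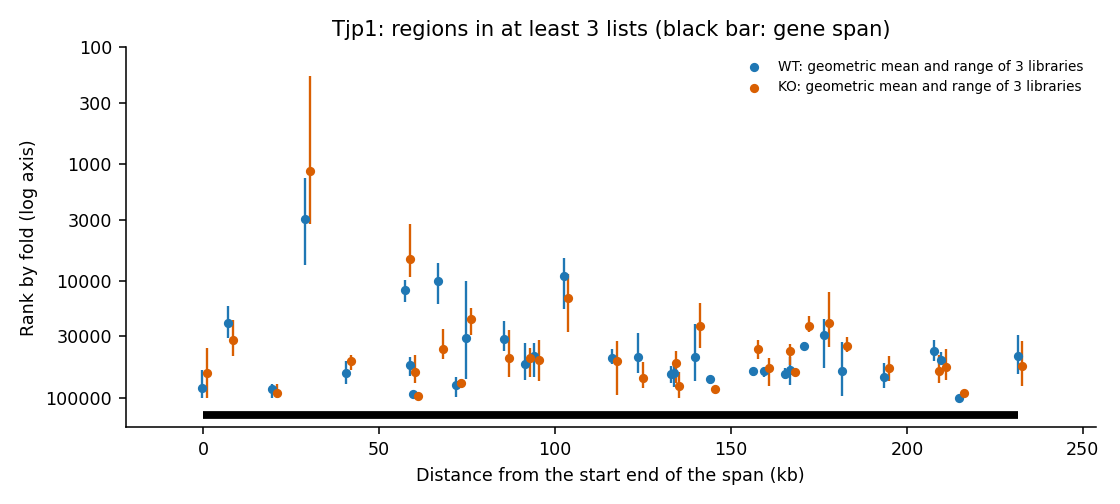
Rank by fold (y axis, log scale, best at the top) of the tested regions near Tjp1 against distance from the start end of its span in kb (x axis); points are geometric means of 3 libraries and lines their range, WT and KO drawn slightly apart. The black bar is the gene span. The region at 67.4 kb is the one where the WT and KO ranges lie farthest apart, with WT better.

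In Ocln, the strongest internal region (chr13:100532527-100533375, 19.8 kb inside) ranked far above the start end. It held ranks 8232, 9926 and 7875 in WT and 5527, 4874 and 6021 in KO, without overlap, and its gain was 0.66 ± 0.45 (limma adjusted p = 0.478). Ranked by the peak caller's p, the gain was −0.39. The strongest flank region, beyond the far end of the gene (chr13:100493227-100493845), held ranks 7428, 16937 and 8903 in WT and 7348, 14752 and 5365 in KO, which overlap. In all, 5 Ocln regions had positive and 6 negative gains.

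Near F11r, the flanks on both sides held the largest positive gains of the tested flank regions. A region 12.5 kb before the start (chr1:171424592-171425490) held ranks 25192, 23985 and 37432 in WT and 12456, 10089 and 20146 in KO. The groups did not overlap, and the gain was 1.05 ± 0.40 (limma adjusted p = 0.291). It was 0.43 when ranked by p, and with the gene-end share as covariate its sign turned (−0.036). A region 33.6 kb from the start, past the other end (chr1:171470922-171471430), held ranks 11319, 9913 and 13010 in WT and 2372, 8269 and 5824 in KO, again apart, with a gain of 1.23 ± 0.55 (limma adjusted p = 0.334). That gain was 0.71 without KO replicate 1 and 0.20 when ranked by p. The next strong flank region (chr1:171477823-171478574) showed overlapping ranks of 4947, 15909 and 9360 in WT and 7192, 16552 and 10505 in KO. The best internal region (chr1:171445103-171445493) held ranks 27486, 50945 and 35244 in WT and 49032, 56405 and 38326 in KO, which also overlap. Of the 13 tested F11r regions, 5 had a positive and 8 a negative gain.

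**Figure D4:**
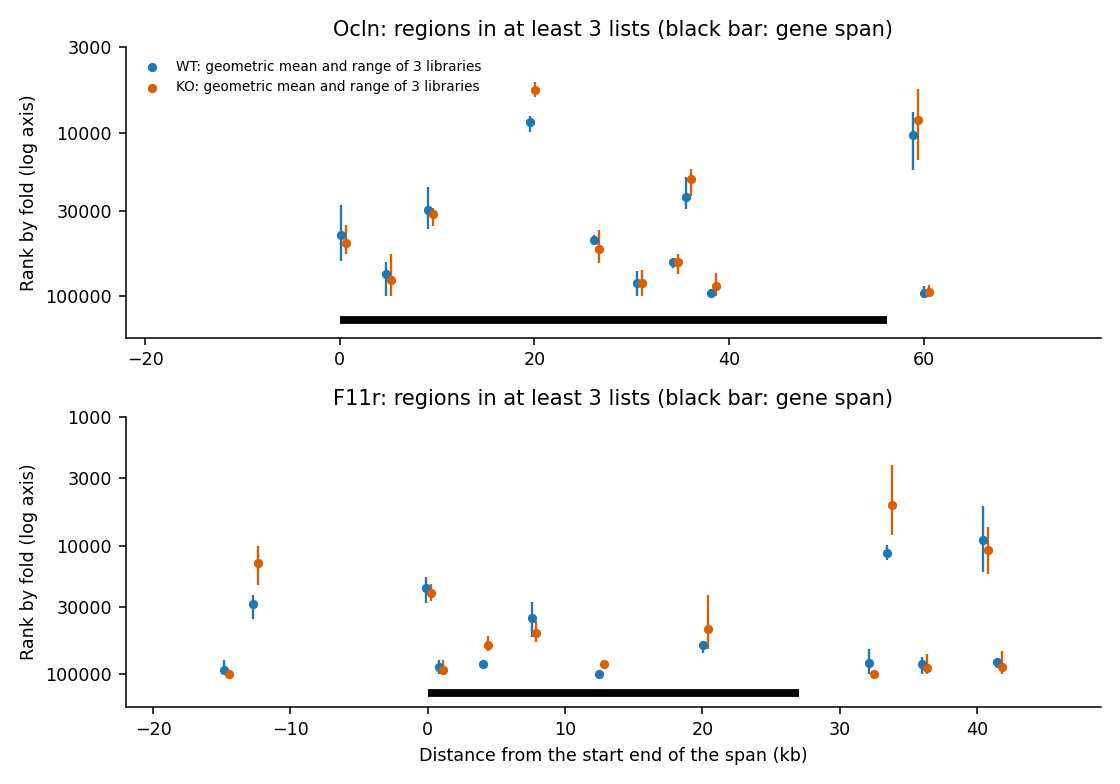
Rank by fold (y axis, log scale, best at the top) of the tested regions near Ocln and F11r against distance from the start end in kb (x axis); points are geometric means of 3 libraries, lines their range, and the black bar the gene span. KO lies above WT without overlap at 19.8 kb in Ocln and at −12.5 and 33.6 kb around F11r, while the start ends overlap.

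Around the claudins, most tested regions lay outside the short spans. The best flank region of Cldn3 (chr5:135001210-135001717, 15.3 kb past the start) held ranks 16311, 20978 and 17461 in WT and 9694, 13513 and 11462 in KO. These did not overlap, with a gain of 0.66 ± 0.38 (limma adjusted p = 0.410). The best flank region of Cldn4 (chr5:134958938-134959599) held ranks 12947, 26246 and 12802 in WT and 14249, 22353 and 16355 in KO, which overlap. For Cldn7 the best flank region (chr11:69948086-69949253) lies at an end of Slc2a4 and held ranks 17925, 26646 and 16571 in WT and 31121, 32356 and 20275 in KO.

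Cldn1 had its smallest p in a flank region 14.8 kb before the start (chr16:26386392-26386843), with ranks 74401, 58857 and 73529 in WT and 45193, 43841 and 53879 in KO. All KO libraries ranked better there, with a gain of 0.53 ± 0.24 (limma adjusted p = 0.343). Its internal region (chr16:26369131-26369749) held ranks 29919, 38713 and 26738 in WT and 20057, 41732 and 24437 in KO, which overlap.

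No flank region of Cldn8 passed the test. Its flank regions at chr16:88542583-88542865 and chr16:88570180-88570718 were among the best 100000 in all 3 WT libraries but not in KO replicates 1 and 2. In the whole lists every library, these KO libraries included, had an interval at both regions. The first held ranks 50143, 60230 and 48543 in WT and 53276 in KO replicate 3, for a gain of −0.62 ± 0.28 (limma adjusted p = 0.336), and the gain was 0.44 with the gene-end share of each library as covariate. The second held ranks 64348, 59797 and 37875 in WT and 49892 in KO replicate 3, for a gain of −0.59 ± 0.32 (limma adjusted p = 0.399). In both, KO replicate 3 lay within the WT range.

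Regions of smallest p near the other claudins and Tjp3 were weak. The Cldn4 flank region 20.6 kb from the start (chr5:134926119-134926623) was ranked in WT only in replicate 1 (93534), and in KO at 82082, 58243 and 87810. The Cldn7 flank region at chr11:69960951-69961742 had no ranked interval in WT replicate 2 or in KO replicates 1 and 2. The Cldn3 region just before the start (chr5:134985621-134985873) was ranked in WT only in replicate 2 (99379), and in KO at 73270, 90024 and 78796. Every library had an interval at these Cldn4, Cldn7 and Cldn3 regions in its whole list. Inside Tjp3, the best region (chr10:81285700-81286125) held ranks 72382, 86862 and 92234 in WT and 72037, 65550 and 90590 in KO, which overlap. The best flank region of Tjp3 (chr10:81266486-81267055) lies at ends of Apba3 and Mrpl54 and held ranks 23151, 40456 and 30697 in WT and 28368, 37433 and 34827 in KO.

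**Figure D5:**
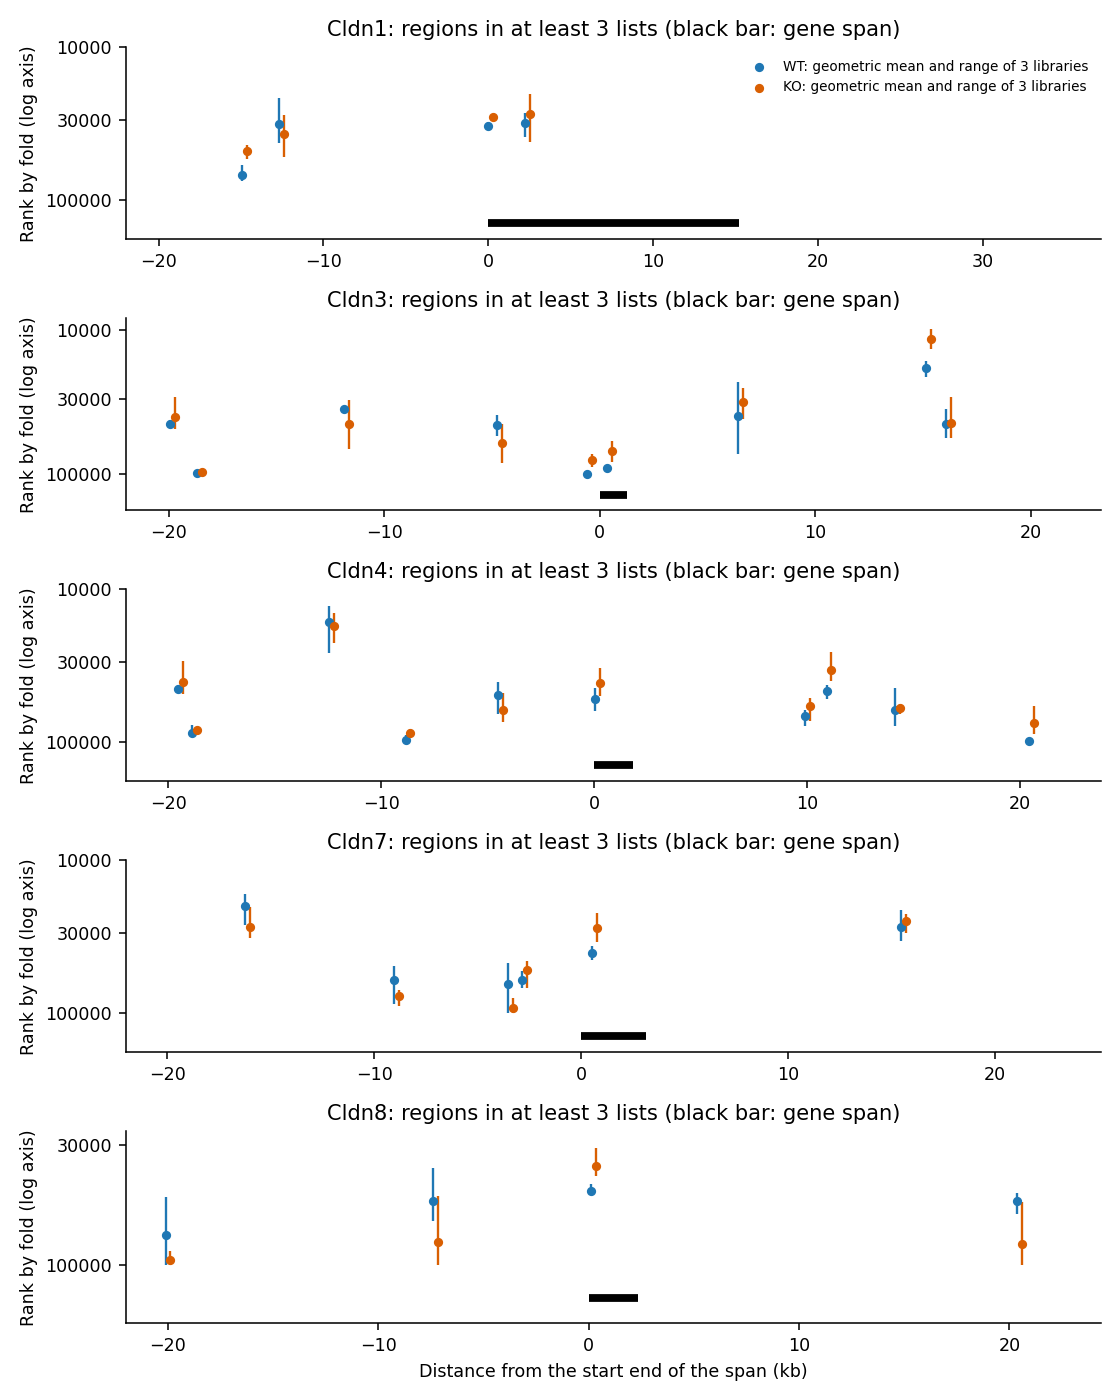
Rank by fold (y axis, log scale, best at the top) of the tested regions near Cldn1, Cldn3, Cldn4, Cldn7 and Cldn8 against distance from the start end in kb (x axis); points are geometric means of 3 libraries, lines their range, and the black bars the gene spans. By mean rank, KO lies above WT at every claudin start end (ranked by p, Cldn1 turned to −0.15). The Cldn8 flank regions at 88542583 and 88570180 lie lower in KO by mean rank. There, KO replicates 1 and 2 had no ranked interval, and KO replicate 3 lay within the WT range.

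Regions held by the 3 libraries of 1 genotype and by none of the other numbered 2 for KO and 0 for WT, where 0.996% and 0.893% of all 138957 regions were of these kinds. The first was inside F11r (chr1:171450003-171450402, ranks 82234, 80711 and 88185 in KO). The second was inside Tjp1 (chr7:65312146-65312567, ranks 94246, 89831 and 87883 in KO). Both lay near the end of the ranked lists, and in the whole lists WT replicates 2 and 3 had an interval at each of them.

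Counted per library, 97, 87 and 99 intervals of the best 100000 overlapped the widened spans in WT (94.3 ± 6.43, SD, n = 3), and 105, 100 and 100 in KO (102 ± 2.89, n = 3). The difference of 7.33 had the smallest p that 3 against 3 allows (exact permutation test, two-sided p = 0.1). In the whole lists the numbers were 152, 164 and 167 in WT and 193, 157 and 170 in KO, which overlap (exact permutation test, two-sided p = 0.4).

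Other tight junction genes were taken from a list of 41, chosen with earlier results of these data known. Of these, 40 matched the gene table and 22 had a start end open in at least 3 libraries. Gains were positive at all 22, beside 71.5% of all start ends tested, with a median of 0.43 beside 0.24 for all. None passed the limma test (5 with an unadjusted p under 0.05, all higher, where 11.7% of all start ends were). That number was 9 with the replicate block, where 23.4% of all were higher. It was 1 with the gene-end share as covariate, for which no share over all start ends is given. By group, 3 of 18 other claudins were tested (median gain 0.25), 8 of 10 other membrane proteins (0.64) and 11 of 13 scaffolds and polarity proteins (0.48). The smallest p was that of Cxadr, the coxsackievirus and adenovirus receptor of epithelial junctions. Its ranks were 34164, 23113 and 38339 in WT and 10458, 10656 and 19302 in KO, without overlap, and its gain was 1.27 ± 0.37 (limma adjusted p = 0.310). Patj, a polarity scaffold of the Crumbs complex, held ranks 33289, 24030 and 22071 in WT and 6115, 9426 and 19214 in KO, also apart. Its gain was 1.33 ± 0.44 (limma adjusted p = 0.323). Single libraries decided these calls. Without KO replicate 3, Cxadr, Patj, Mpdz, Ildr2 and Ybx3 passed as higher, in a fit where 6.53% of all start ends were higher and 0.722% lower. Without WT replicate 2, Cxadr and Mpdz passed, where 1.98% were higher and 0.814% lower. None of the 9 members passed at its start end in either fit.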

How the data were processed

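ATAC-seq of sorted urothelial cells gave 1 peak list per library (3 WT, 3 KO), called per library. Per the submitters' processing notes, mm10 is named as the build and DiffBind as a tool, whose output was not used here. Neither aligner nor peak caller is given in the sources used here. Columns of the deposited lists hold each peak's fold over local background (a ratio), −log10 p-value, −log10 q-value, a display score and a summit offset, all by the authors; the score and offset were not used. Folds depend on depth, so they entered the tests only as ranks within a list. The files do not give depth in reads.

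Peaks that share an interval were reduced to 1 with the best fold, the best 100000 were ranked (ties by p, then position), and intervals overlapping by at least 1 bp were merged. Regions, or start ends, with an interval in at least 3 libraries were tested on −log2 ranks with limma 3.58.1 (R 4.3.3; moderated, trended variances; Benjamini-Hochberg over all; adjusted p under 0.05, two-sided). Spans and starts came from RefSeq GRCm38.p6 tables, which give no exons or introns; strand was known for 17492 of 21887 genes. The steps were tested on simulated lists whose spread was set and not taken from these libraries, so the test does not show which size of change could be found here. Python 3.11.15, NumPy 2.4.6, pandas 2.3.3, SciPy 1.17.1, matplotlib 3.10.9 and bedtools 2.31.1 were used.

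Replicate numbers come from the sample titles. Deviations from the group means correlated at 0.105, 0.558 and 0.401 between WT and KO libraries of the same number. WT replicate 1 correlated better with KO replicate 3 (0.318). The main fits did not pair the libraries, and the replicate number entered only as the block of an alternative fit. Alternatives covered the ranking, list length, scale, filter, windows, overlap, gene-end share, replicate block and each library left out. The starts of the promoter table were added after the data were seen.

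The members and gene lists were chosen with earlier results of these data known. The regions named for each gene are those at its ends, its best internal and flank regions by mean rank, the region of smallest p and any held by 1 genotype alone. Other regions quoted (the F11r flank at 171477823 and the region over the listed Tjp1 start) were chosen after their values were seen. Other tight junction genes named are those with the 2 smallest p per direction and any that passed. Promoters printed are those of the best and worst start end and of the most positive and most negative gain.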

Additional observations from a re-analysis of the deposited data

How the results depend on the processing

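Under every alternative run, no member passed at its start end, and no region near a member passed apart from 1 lower region without KO replicate 3 (0 to 1 across libraries left out). With the replicate block the counts stayed at 0 (Tjp1 region at 65460234, gain −1.93, adjusted p = 0.103; smallest at start ends 0.138), and the pairing changed no other call. Other tight junction genes that passed as higher numbered 0 to 5 with each library left out (2 without WT replicate 2, 5 without KO replicate 3). The median gain at the members' start ends was 0.11 when ranked by p (0.33 for all start ends) and 0.12 on linear ranks, which is another scale. The difference in interval counts was 12.3 in whole lists and 13.3 at a −log10 q of at least 2. Regions in KO alone numbered 1 when ranked by p, with 50000 intervals, in whole lists and at that q, and 2 to 7 with each library left out (7 without KO replicate 3). Those in WT alone numbered 1 in whole lists and 0 to 3 with each library left out. With a library left out the rule is looser, since fewer lists must hold or lack the region. No share over all regions is given for these alternatives, so the counts are not read as a result about the members. With the share of gene ends as covariate, signs reversed at the Cldn4 flank 134926119 (−0.083), the Cldn7 flank 69960951 (0.13), the Cldn8 flank 88542583 (0.44), the F11r flank 171424592 (−0.036), the Tjp1 region 65497870 (−2.00) and the start ends of F11r (0.055), Ocln (0.0098) and Tjp1 (−1.10). Ranked by p, they reversed at the Ocln region 100532527 (−0.39) and the Cldn1 start end (−0.15). With windows of 1000 bp, Tjp3 took the gain of an interval at an end of Pip5k1c (−0.084). Tjp1 was −0.27 at its better-ranked end. With each library left out, the F11r start end ranged from −0.32 to 0.023 and that of Ocln from −0.40 to 0.17. The cause was not tested. The gene-end share was higher in every KO library than in every WT library, so that covariate cannot be cleanly separated from genotype. In all, 139 of 147 alternative values at start ends and 144 of 151 at regions kept their sign and side of the threshold. A filter or list length that drops a region gave no value for it. Depth limits intervals near rank 100000, where a missing interval is not shown to be closed.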
